A study of Mus musculus with 24 samples.

Results

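The genes described here code for the collagens, the laminins and the proteins that bind them together in the extracellular matrix of the mouse liver. They were chosen by symbol: every collagen alpha chain, every laminin alpha, beta or gamma chain, and Fn1, Nid1, Nid2, Hspg2 and Sparc. The GENCODE M21 annotation holds 60 such genes, and 56 of the 22392 genes in the table are among them: 40 collagen chains, 11 laminin chains and the 5 others. Col2a1, Col9a1, Col9a2 and Col26a1 were not analysed here. A mean normalized count of at least 10 over the 24 libraries was needed for a test, which 41 of the 56 genes had and 15 did not.

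Collagens are trimers of alpha chains, each a long helix in which glycine returns at every step of 3 residues. Fibrillar collagens (types I, III and V in most tissues) pack into the cables that thicken in liver scarring, and hepatic stellate cells are their best known source. Basement membranes are sheets in which a network of type IV collagen and a network of laminin, itself a trimer of an alpha, a beta and a gamma chain, are joined by nidogen and perlecan. The healthy liver sinusoid has no continuous basement membrane, and hepatocytes are known as a large source of plasma fibronectin and of type XVIII collagen, which holds the endostatin fragment.

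Liver RNA came from CD2F1 mice in 3 groups of 8. CT mice were sham-injected and had no tumour. C26 mice carried the transplanted C26 colon carcinoma, a model of cancer wasting, and were untreated. C26-CHO mice were injected with C26 as well and were fed cholestyramine, which traps bile acids in the intestine, as 2% (w/w) of their food on days 1 to 10. The labels name 1 tumour line, give no age or sex, and count each library as a separate mouse, so p-values measure the spread between mice. Whole liver was sequenced, and fewer cells of a type and less RNA per cell cannot be told apart.

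Depth ran from 19.9 M to 30.5 M reads per library. Levels below are normalized counts, the reads of a gene divided by the size factor of its library, and a change is the difference of mean log2(normalized count + 1). The first principal component of all tested genes held 71.9% of the variance. On it, the liver of C26-CHO mouse 1 stood apart at -13.4, between CT livers at -83.2 to -75.4 and the other C26-CHO livers at 22.3 to 50.5. Markers of hepatocytes, the main cell of the labelled tissue, had a summed level of 1655326 to 1984475 in CT. Of 6 colon epithelium markers, 3 were in the table, with a summed level of 174 to 450 in CT and 99.4 to 206 in C26. Of these, Cdx2 was at 0 in every CT library, though not in every C26 or C26-CHO library, and was too low to be tested.

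Before the levels, a few coding stretches show what divides the chains. Each is 15 codons of the GENCODE M21 transcript on GRCm38, printed so that a reader can see the glycine step, with glycine codons (GGN) in capitals.
Col1a2, codons 97 to 111: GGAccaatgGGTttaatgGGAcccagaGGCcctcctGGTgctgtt
Col4a1, codons 157 to 171: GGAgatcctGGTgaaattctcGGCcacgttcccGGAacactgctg
Col4a2, codons 969 to 983: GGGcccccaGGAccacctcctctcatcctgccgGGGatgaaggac
In Col1a2 the capitals keep an even step, and the stretch opens its longest run. In Col4a1 and Col4a2 the step breaks where the longest run ends. The longest run of such triplets was 216 to 344 in the 10 fibrillar chains of the table, 30 to 66 in the 8 basement membrane collagens, 37 to 87 in the 6 type VI chains and 2 to 3 in the laminin chains.

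In C26 livers the matrix genes moved in both directions. Fibronectin (Fn1) and the common type IV chains Col4a1 and Col4a2 rose by 2- to 4-fold, Col6a6 and Col8a1 by more than 4-fold, while the fibrillar chains Col27a1 and Col5a3 and the laminin chain Lama3 fell by more than 3-fold. Col1a1 and Col3a1, the chains followed in liver scarring, did not pass the test. Of the 41 tested genes, 18 rose and 11 fell in C26 vs CT, and 12 did not pass. That is 70.7% called, where 66.3% of all 14040 tested genes were called, so the share is near the background. Among all genes 33.3% were called higher and 32.9% lower. The median change of the 41 genes was 0.17 on the log2 scale, beside 0.0056 for all genes. Scaling each library to its total gave 15 higher and 19 lower of the 41, beside 2347 higher and 8178 lower of all 14040.

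At least 2-fold changes were called in 11 genes that rose and 4 that fell, together 15 of 41, where 17.4% of all tested genes passed both limits. Groups did not overlap in 18 genes, 13 higher and 5 lower in every C26 mouse than in every CT mouse, against a background of 35.0%. As a share of all reads, the 56 genes made up 0.277% ± 0.0173 in CT, 0.471% ± 0.0665 in C26 and 0.461% ± 0.0723 in C26-CHO (SD, n = 8 each). Fn1 and Col18a1 made up most of that share. Without them the summed level of the other 54 genes was 11724 ± 734 in CT, 11684 ± 1131 in C26 and 11641 ± 1602 in C26-CHO.

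**Figure D1:**
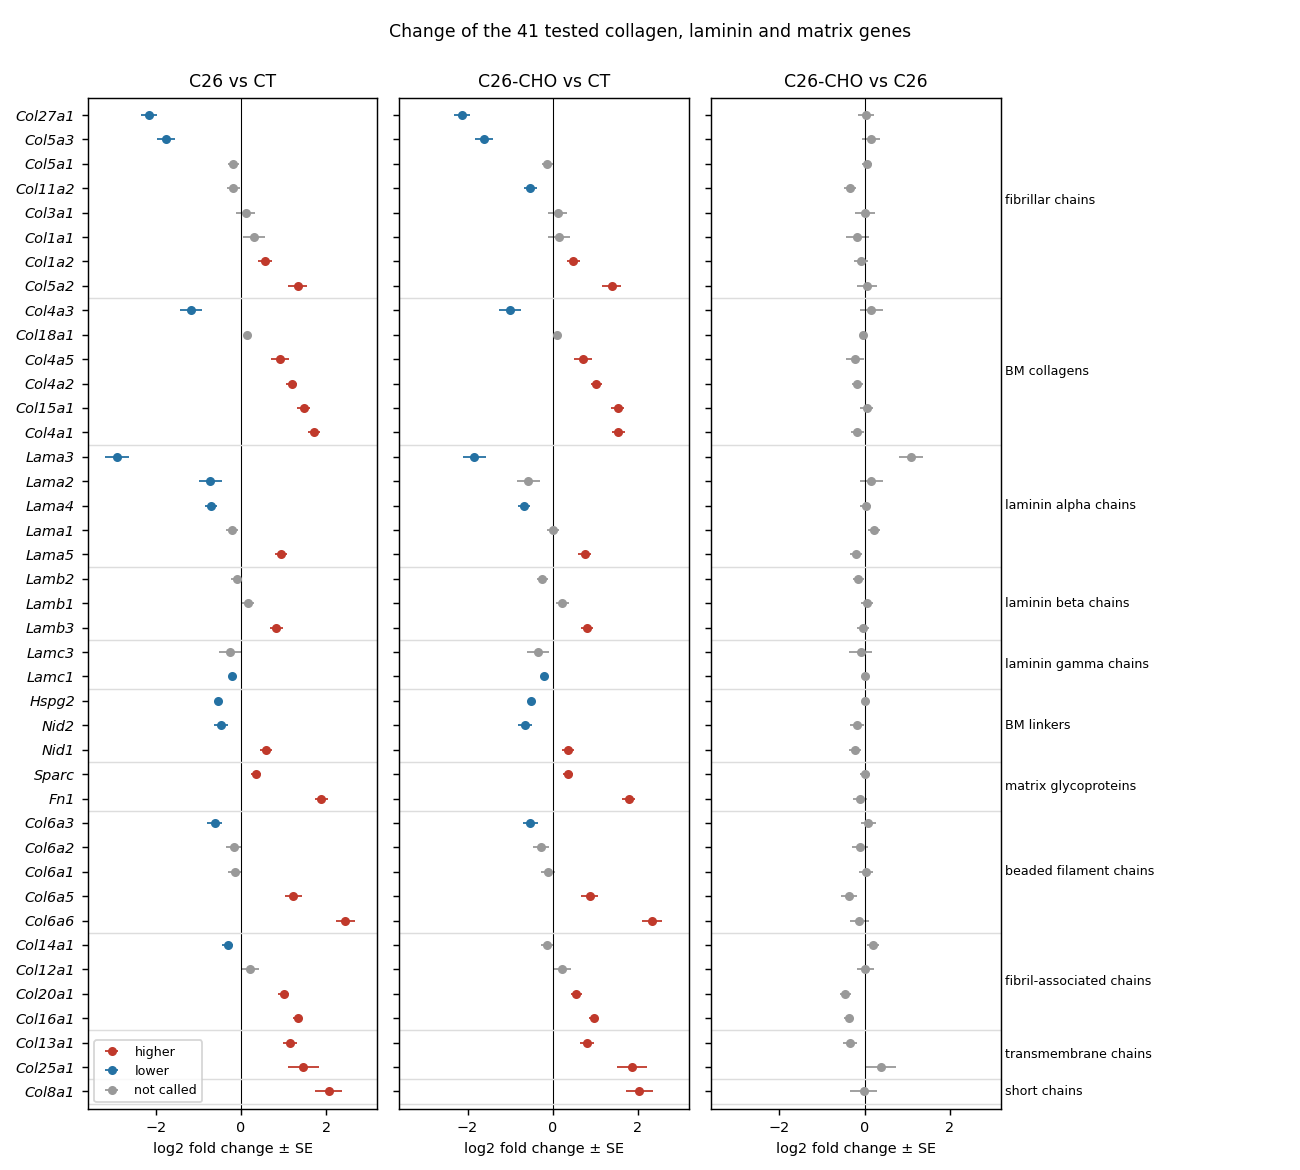
Log2 fold change (x axis) of the 41 tested genes in the 3 comparisons, grouped by class, where BM stands for basement membrane. Points are fitted changes, bars are ± 1 SE from 8 mice a group, and colour marks genes called by limma at an adjusted p under 0.05. The first and second panels show 18 genes to the right in red and 11 or 10 to the left in blue, and no point of the third panel is coloured.

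Per length, fibronectin and type XVIII collagen stood far above the other genes. Col18a1 was first in CT with 2890 ± 380 normalized counts per kb of exon, and Fn1 was next with 1981 ± 337 (SD, n = 8). In C26 the order was the reverse, with Fn1 at 7298 ± 1306 and Col18a1 at 3152 ± 248. Sparc held the next place in all 3 groups at 379 to 494 per kb, and its spread did not reach that of the first 2.

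Below these, Col5a3 at 202 ± 38.3 per kb, Col27a1 at 149.7 ± 37.9 and Col14a1 at 139.5 ± 23.2 led in CT, and neighbours among these 3 lay within 2 SD of each other. In C26, Col4a1 at 209 ± 46.6 and Col4a2 at 120.4 ± 24.8 came next after Sparc. Col14a1 followed at 111.8 ± 17.5, within the spread of Col4a2. Col5a3 then stood at 60.0 ± 16.3 per kb, close to Col3a1 at 60.5 ± 13.3.

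**Figure D2:**
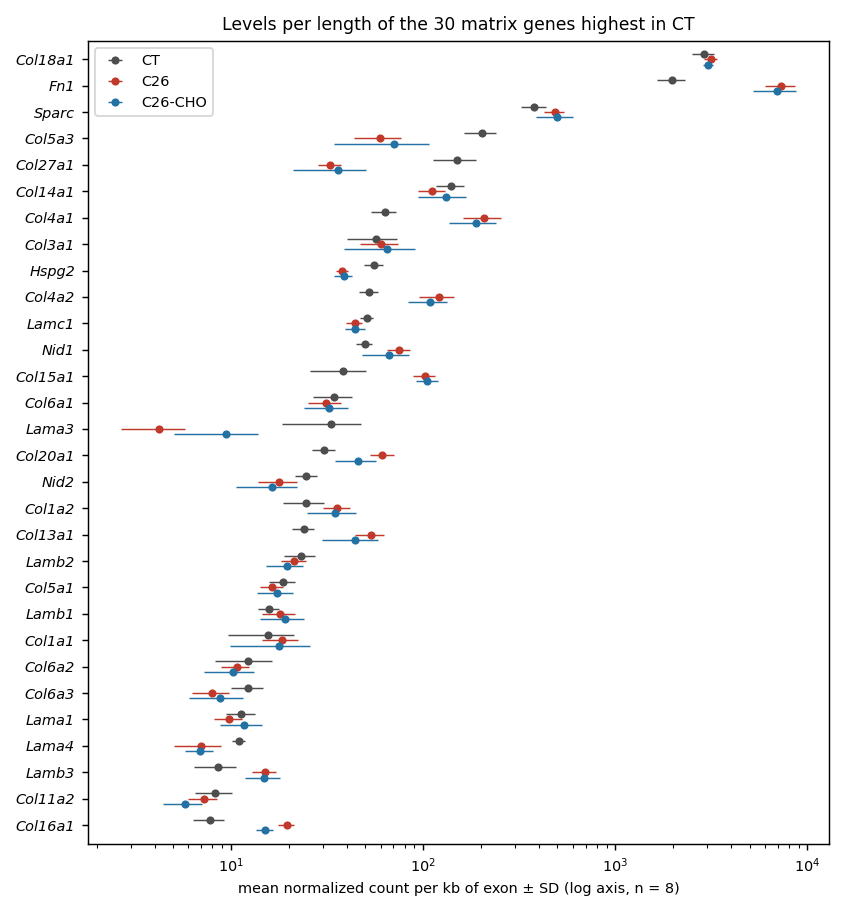
Mean normalized count per kb of exon (log axis) in CT, C26 and C26-CHO for the 30 genes with the highest CT level, with bars of ± 1 SD over 8 mice. Col18a1 and Fn1 lie far to the right in every group, Fn1 moves right in both tumour groups, and Col5a3, Col27a1 and Lama3 move left.

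Fn1 (ENSMUSG00000026193, chr1:71585520-71653200, minus strand) codes for fibronectin, which binds cells, collagen and fibrin. Its normalized counts were 16806 to 28663 in CT (median 24392), 65205 to 110370.1 in C26 (median 87273) and 39518 to 105571 in C26-CHO (median 86528). Every C26 and C26-CHO liver lay above every CT liver, and C26-CHO mouse 1 was the lowest of its group. The change was 1.88 ± 0.16 (SE, limma adjusted p = 7.63e-11) in C26 and 1.78 ± 0.16 (SE, limma adjusted p = 2.96e-10) in C26-CHO. Sparc (osteonectin, chr11:55394500-55423183, minus strand), a glycoprotein that binds collagen in the matrix, had normalized counts of 1223 to 1803 in CT (median 1342), 1546 to 2130.4 in C26 (median 1847) and 1146 to 2206 in C26-CHO (median 2002). These groups overlapped, with C26-CHO mouse 7 below all CT mice, and the change was 0.36 ± 0.12 (SE, limma adjusted p = 0.0109). When libraries were scaled to their totals the Sparc change was 0.01 and no longer passed.

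Scaling to library totals lowered the median change of all genes to -0.34 in C26 vs CT and -0.30 in C26-CHO vs CT. Under it 15 matrix genes were higher and 19 lower in C26, and 13 higher and 18 lower in C26-CHO. Of all 14040 tested genes, this scaling called 2347 higher and 8178 lower in C26, and 2225 higher and 7900 lower in C26-CHO. Sparc, Nid1 and Col1a2 lost their calls in both comparisons. The 8 genes called lower in C26 under this scaling and not in the main test were Col18a1, Col5a1, Col11a2, Col6a1, Col6a2, Lama1, Lamb2 and Lamc3.

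Of 6 tested basement membrane collagens, 4 were called higher in C26 and 1 lower, where 33.3% of all genes were called higher and 32.9% lower. Col4a1 and Col4a2, the chains of the common type IV network, sit head to head on chromosome 8 at chr8:11198423-11312826, minus strand and chr8:11312805-11449287, plus strand, where the annotated genes overlap by 22 bases. Normalized counts of Col4a1 were 364 to 549 in CT (median 497), 1105 to 2256 in C26 (median 1575) and 833 to 2105 in C26-CHO (median 1397). Those of Col4a2 were 289 to 393 in CT (median 355), 605 to 1141 in C26 (median 786) and 422 to 936 in C26-CHO (median 738). All tumour-bearing mice exceeded all CT mice for both chains. Col4a1 rose by 1.71 ± 0.15 (SE, limma adjusted p = 1.94e-10) and Col4a2 by 1.19 ± 0.13 (SE, limma adjusted p = 1.8e-08). Use of strand in counting is not given in the sources used here, so reads in the shared 22 bases cannot be assigned to one chain.

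The other type IV pairs are also head to head but low in liver. Col4a5, of the kidney type network, had normalized counts of 23 to 39.8 in CT (median 35.9), 48.5 to 100.4 in C26 (median 64.4) and 20.3 to 76.8 in C26-CHO (median 62.4). It rose by 0.92 ± 0.21 (SE, limma adjusted p = 0.00037), and C26 did not overlap CT. Under scaling to the library total its call held in C26 vs CT and was lost in C26-CHO vs CT, at 0.40 with a limma adjusted p of 0.0713. Col4a3, its partner chain, had 12.9 to 21.4 in CT (median 15.6), 1.2 to 12 in C26 (median 7.72) and 4.66 to 9.5 in C26-CHO (median 8.20). Every tumour-bearing mouse lay below every CT mouse, and the change was -1.17 ± 0.26 (SE, limma adjusted p = 0.000317). With a mean of 10.3, Col4a3 reached the level tested only through the CT livers, where it was high. It shares exon bases with C430014B12Rik on the other strand, which held 262 reads over all libraries beside 259 for Col4a3. Its value and its call are therefore uncertain. Col4a4 had 47 reads over the 8 CT libraries, 13 in C26 and 27 in C26-CHO, and Col4a6 had 7 reads in all, so neither was tested.

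The starts of the pairs show how close the chains lie. For Col4a1 and Col4a2, 30 bases around a CCAAT box are printed, and for Col4a4 and Col4a3 the whole 71 bases between the starts. Both are from RefSeq on GRCm38.p6, and capitals mark CCAAT, the only searched motif found in them.
Col4a2 strand, chr8:11312760-11312789 (+): cccgaggagctccCCAATttgttggcgctg
Col4a4 strand, chr1:82586850-82586920 (-): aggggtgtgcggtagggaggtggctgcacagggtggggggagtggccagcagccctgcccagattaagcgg
The CCAAT box starts 32 bases before the Col4a2 start and lies inside the annotated Col4a1 gene, 53 bases past its start. In the 71 bases neither this box nor any of the motifs GGGCGG and TATAAA, nor the STAT core TTCNNNGAA, was found on either strand.

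Col15a1 and Col18a1 code for the 2 multiplexins, basement membrane collagens that carry heparan or chondroitin sulfate. Normalized counts of Col15a1 were 125 to 377 in CT (median 233), 505 to 739 in C26 (median 683) and 569.6 to 816 in C26-CHO (median 676). Each tumour-bearing mouse lay above each CT mouse, and the rise was 1.47 ± 0.15 (SE, limma adjusted p = 3.3e-09). Col18a1, the most abundant collagen transcript here, had normalized counts of 16941 to 24276 in CT (median 20121), 20972 to 26191 in C26 (median 21654) and 20015 to 24062 in C26-CHO (median 21235). Its groups overlapped and the change of 0.13 ± 0.07 (SE, limma adjusted p = 0.0992) did not pass, with an interval of -0.01 to 0.28. Without CT mouse 2 it was 0.17 (limma adjusted p = 0.0292). With quantile normalization it was 0.21 (limma adjusted p = 0.0182), and with libraries scaled to their totals it turned to -0.21 (limma adjusted p = 0.0043), so its direction depends on the scaling.

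Proteins that join the networks split. Hspg2, perlecan, had normalized counts of 647 to 914 in CT (median 812), 503 to 615 in C26 (median 535) and 479 to 649.7 in C26-CHO (median 568). All C26 mice were below all CT mice, and Hspg2 fell by 0.54 ± 0.07 (SE, limma adjusted p = 3.14e-07). Nid2, a nidogen, had 102 to 147 in CT (median 129), 66.9 to 129 in C26 (median 85.6) and 53.8 to 142 in C26-CHO (median 75.2). It fell by 0.48 ± 0.16 (SE, limma adjusted p = 0.0107) in C26, where mice 1 and 3 lay within the CT range. Nid2 shares exon bases with Rtraf on the other strand, so its value is uncertain. Nid1, the other nidogen, had 304 to 412 in CT (median 336), 411 to 578 in C26 (median 559.6) and 228 to 602 in C26-CHO (median 478). It rose by 0.59 ± 0.14 (SE, limma adjusted p = 0.000696), with 8 of 8 C26 mice above the CT mean. In C26-CHO vs CT the Nid1 rise was 0.36 ± 0.14 (SE, limma adjusted p = 0.0284), and leaving out CT mouse 8 or C26-CHO mouse 2, 4, 5 or 8 lost the call, with changes of 0.30 to 0.34 and limma adjusted p of 0.0511 to 0.0695.

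Of 5 laminin alpha chains, 3 were called lower and 1 higher in C26, beside the same 32.9% and 33.3% of all genes. Lama3 (chromosome 18) is the alpha chain of laminin-332, the laminin of epithelia that attach through hemidesmosomes. Its normalized counts were 202 to 682 in CT (median 306), 19.9 to 74.6 in C26 (median 44.3) and 49.1 to 165 in C26-CHO (median 91.3). CT mice were all above the tumour-bearing mice, and the C26 and C26-CHO ranges overlapped. The change was -2.92 ± 0.28 (SE, limma adjusted p = 1.14e-09) in C26 and -1.84 ± 0.28 (SE, limma adjusted p = 3.18e-06) in C26-CHO. Lamb3, the beta chain of the same trimer, had 40.6 to 75.0 in CT (median 51.2), 79.1 to 118 in C26 (median 105) and 59.5 to 125 in C26-CHO (median 99.4) and rose by 0.83 ± 0.15 (SE, limma adjusted p = 1.94e-05), with C26 and CT apart. Lama3 fell and Lamb3 rose, so these chains of 1 trimer moved in opposite directions in C26.

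Lama4, of the laminins of vessel walls, had normalized counts of 114 to 142 in CT (median 136), 46.5 to 121 in C26 (median 82.8) and 67.9 to 109 in C26-CHO (median 79.4). It fell by 0.70 ± 0.14 (SE, limma adjusted p = 6.88e-05), and a single C26 mouse, number 2, came within the CT range. Lama5, of the laminins found in most adult basement membranes, had 36.4 to 84.8 in CT (median 60.1), 88.1 to 129 in C26 (median 114) and 73.2 to 118 in C26-CHO (median 105). Here C26 lay above CT throughout, and the rise was 0.94 ± 0.14 (SE, limma adjusted p = 2.19e-06). Lama1, of the embryonic laminin-111, had 87.9 to 151 in CT (median 108), 64.8 to 118 in C26 (median 93.6) and 62.6 to 161 in C26-CHO (median 113) and did not pass, at -0.21 ± 0.14 (SE, limma adjusted p = 0.198). With quantile normalization Lama1 was called lower at -0.32 (limma adjusted p = 0.0421), as it was with scaling to library totals at -0.56 (limma adjusted p = 0.00202).

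Lama2, of the laminin of muscle and nerve, was low at 30.8 to 52.7 in CT (median 37.6), 6.12 to 33.2 in C26 (median 25.2) and 11.5 to 42.4 in C26-CHO (median 24.1). It fell by 0.73 ± 0.27 (SE, limma adjusted p = 0.0201) in C26 and did not pass in C26-CHO vs CT, at -0.57 ± 0.27 (SE, limma adjusted p = 0.0685). Without C26 mouse 4 or C26-CHO mouse 4, 5 or 8 Lama2 passed there, with limma adjusted p from 0.0155 to 0.0450. It also passed with a pseudocount of 8, both other scalings, only the 2 groups compared, and DESeq2. C26 mouse 4 held the lowest Lama2 count of all, 6.12.

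Of the 5 tested beta and gamma chains, Lamb3 rose and Lamc1 fell in C26, where 66.3% of all genes were called. Lamb1, the most widely used beta chain, had normalized counts of 127 to 187 in CT (median 159), 129.7 to 214 in C26 (median 190.1) and 100.5 to 251 in C26-CHO (median 189.8), and Lamb2 had 97.6 to 176 in CT (median 142), 106 to 155 in C26 (median 127) and 79.3 to 155 in C26-CHO (median 113). Their groups overlapped, and neither passed in C26 vs CT, at 0.17 ± 0.15 (SE, limma adjusted p = 0.331) and -0.10 ± 0.13 (SE, limma adjusted p = 0.507). In C26-CHO vs CT, Lamb1 passed without C26-CHO mouse 7 (0.35, limma adjusted p = 0.0175), and Lamb2 passed without CT mouse 8 or C26-CHO mouse 4 (-0.32 and -0.31, limma adjusted p = 0.0304 and 0.0440) and with either other scaling. Lamc1, the gamma chain of most laminins, had 369 to 459 in CT (median 429), 289.9 to 406 in C26 (median 369) and 288 to 435 in C26-CHO (median 370.3). It fell by 0.22 ± 0.07 (SE, limma adjusted p = 0.0118), the smallest change that passed in that comparison, with 0 of 8 C26 mice above the CT mean. Lamc3 had 6.82 to 16.8 in CT (median 12.9), 3.83 to 14.9 in C26 (median 13.3) and 4.75 to 15.1 in C26-CHO (median 8.85) and did not pass, at -0.26 ± 0.27 (SE, limma adjusted p = 0.395).

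Of the 8 tested fibrillar chains, 2 rose and 2 fell in C26, where 33.3% of all genes were called higher and 32.9% lower. The summed level of all 10 was 4569 ± 426 in CT, 2333 ± 302 in C26 and 2478 ± 508 in C26-CHO (SD, n = 8 each). Col27a1 and Col5a3 carried that difference, and the other 8 chains summed to 1244 ± 278, 1496 ± 267 and 1529 ± 504 with overlap. Col27a1 (chr4:63214004-63334991, plus strand) codes for a fibrillar chain best known from cartilage. Normalized counts of Col27a1 were 1539.7 to 2871 in CT (median 1752), 342 to 535 in C26 (median 434) and 285 to 759.8 in C26-CHO (median 396). No tumour-bearing mouse reached the CT range. The change was -2.16 ± 0.19 (SE, limma adjusted p = 1.34e-10) in C26 and -2.12 ± 0.19 (SE, limma adjusted p = 2.61e-10) in C26-CHO.

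Col5a3 (chr9:20770050-20815067, minus strand), the less common of the type V chains, had normalized counts of 1044 to 1760.4 in CT (median 1318), 276 to 593 in C26 (median 381) and 279.5 to 1037 in C26-CHO (median 434). C26 lay wholly below CT, and C26-CHO mouse 1 at 1037 lay just below the lowest CT mouse. The change was -1.77 ± 0.21 (SE, limma adjusted p = 4.03e-08) in C26. Its partners in type V collagen, which sets fibril width, behaved differently. Col5a1 had 115 to 183 in CT (median 168), 112 to 164 in C26 (median 139) and 89.9 to 179 in C26-CHO (median 154) and did not pass, at -0.19 ± 0.13 (SE, limma adjusted p = 0.199). Col5a2 had 39.7 to 70.3 in CT (median 55.9), 62.4 to 186 in C26 (median 167) and 61.7 to 235 in C26-CHO (median 161). It rose by 1.33 ± 0.23 (SE, limma adjusted p = 1.62e-05), with C26 mouse 4 and C26-CHO mouse 7 alone at the CT level.

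Types I and III make up the bulk of scar collagen. Col1a1 had normalized counts of 46.9 to 167 in CT (median 91.7), 73.4 to 161 in C26 (median 122) and 46.7 to 199.8 in C26-CHO (median 110.5), and Col3a1 had 361 to 889 in CT (median 528), 345 to 772 in C26 (median 593) and 286 to 977 in C26-CHO (median 636). Their groups overlapped almost fully, with CT mouse 4 among the highest livers of all. Neither passed in C26, Col1a1 at 0.31 ± 0.26 (SE, limma adjusted p = 0.303) with an interval of -0.23 to 0.84 and Col3a1 at 0.10 ± 0.23 (SE, limma adjusted p = 0.702) with an interval of -0.36 to 0.57. Col1a2, the partner of Col1a1 in type I, had 231 to 455 in CT (median 291), 349 to 539 in C26 (median 445) and 253 to 618 in C26-CHO (median 432). It rose by 0.56 ± 0.16 (SE, limma adjusted p = 0.00349) with overlap, and under scaling to the library total at 0.22 it did not pass (limma adjusted p = 0.241).

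Col11a2, a cartilage chain low in liver, had 38.9 to 80.4 in CT (median 57.5), 40.4 to 67.7 in C26 (median 47.8) and 23.3 to 52.0 in C26-CHO (median 39.8). It did not pass in C26 vs CT, at -0.18 ± 0.15 (SE, limma adjusted p = 0.289), and fell in C26-CHO vs CT by 0.53 ± 0.15 (SE, limma adjusted p = 0.004). The difference between those tumour groups did not pass, at -0.34 ± 0.15 (SE, limma adjusted p = 0.323). Col24a1 and Col11a1 were under the level tested, with 114 and 7 reads over all libraries.

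**Figure D3:**
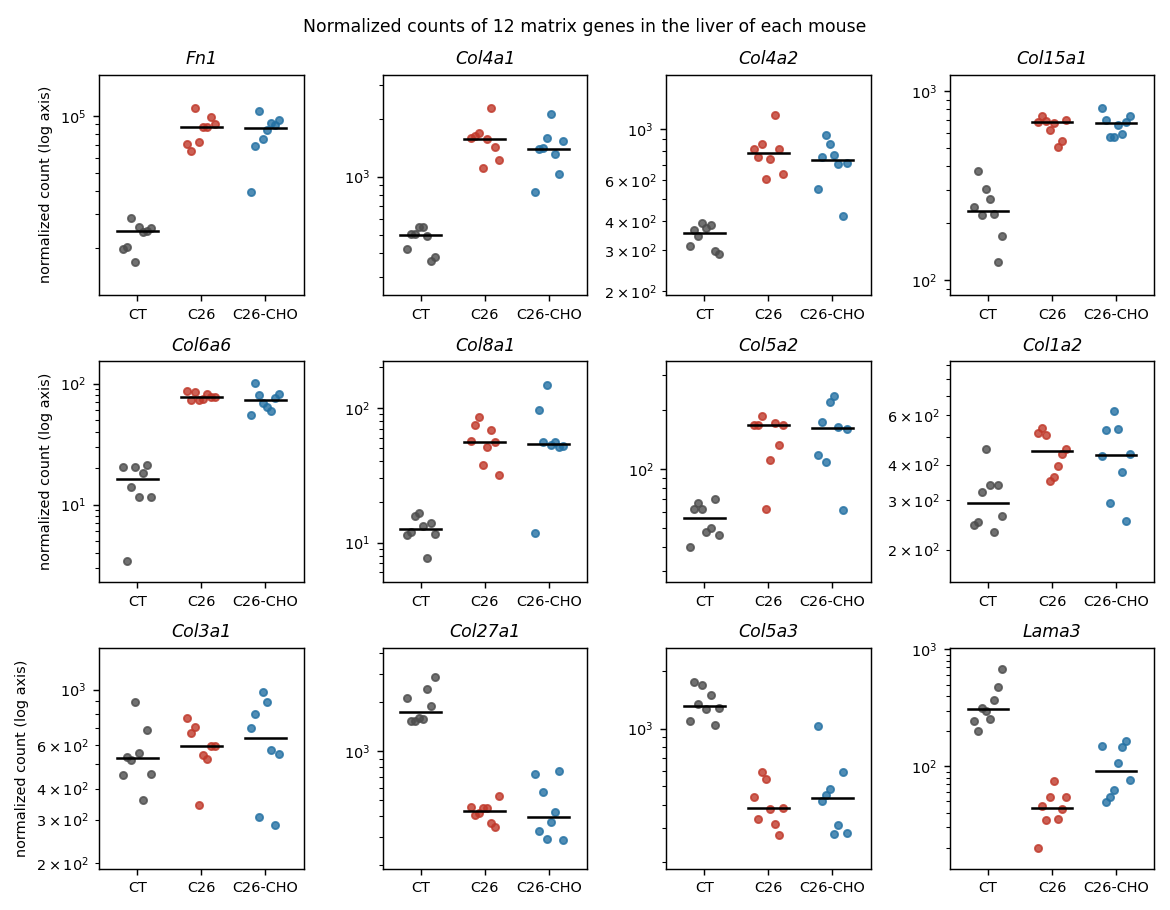
Normalized counts (log axes, one scale per panel) of 12 genes in each of 24 livers, with a bar at the group median of 8 mice. Fn1, Col4a1, Col4a2, Col15a1, Col6a6 and Col8a1 lie higher in C26, Col27a1, Col5a3 and Lama3 lie lower, and Col3a1 overlaps in all groups.

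For 1 of the falling chains and 2 of the rising ones the bases before the start are printed, all 250 upstream of the RefSeq start on GRCm38.p6, with capitals for the motifs CCAAT and GGGCGG on either strand (read on the lower strand as ATTGG and CCGCCC). None of them holds TATAAA or TTCNNNGAA.
Col5a3, fell, chr9:20815068-20815317 (-): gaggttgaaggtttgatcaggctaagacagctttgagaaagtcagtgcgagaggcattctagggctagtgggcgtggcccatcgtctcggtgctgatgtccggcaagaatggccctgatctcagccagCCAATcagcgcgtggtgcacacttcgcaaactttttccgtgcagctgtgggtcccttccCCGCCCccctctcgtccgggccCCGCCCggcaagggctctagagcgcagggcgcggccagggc
Col16a1, rose, chr4:130047590-130047839 (+): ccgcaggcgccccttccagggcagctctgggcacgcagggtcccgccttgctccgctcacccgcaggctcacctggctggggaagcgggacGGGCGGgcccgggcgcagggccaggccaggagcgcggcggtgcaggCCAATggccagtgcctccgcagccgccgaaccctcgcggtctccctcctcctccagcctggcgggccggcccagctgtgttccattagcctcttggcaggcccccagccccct
Col8a1, rose, chr16:57754738-57754987 (-): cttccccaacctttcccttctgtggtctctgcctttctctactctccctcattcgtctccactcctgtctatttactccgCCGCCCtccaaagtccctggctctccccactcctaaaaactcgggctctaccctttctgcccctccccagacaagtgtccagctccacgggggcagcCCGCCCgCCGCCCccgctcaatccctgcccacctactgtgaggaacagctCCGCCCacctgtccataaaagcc
GGGCGG, the core of an Sp1 box, lies in all 3 windows printed. The window of Col6a3, which fell and is not printed, holds neither GGGCGG nor CCAAT. Among the genes with a window, GGGCGG was found in 10 of 16 that rose in C26 and 3 of 5 that fell. Over the same 250 bases of the 41 genes with a RefSeq window, 58.5% held GGGCGG where 35.4% of all 27025 genes did. CCAAT was found in 34.1% against 37.5%, TATAAA in 12.2% against 14.3% and TTCNNNGAA, a STAT core, in 7.32% against 8.13%. Matches are a description of letters.

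Type VI collagen forms beaded filaments from Col6a1, Col6a2 and 1 further chain, and the tested further chains changed. Col6a1 had normalized counts of 107 to 206 in CT (median 147), 85.6 to 173 in C26 (median 141) and 96.1 to 189 in C26-CHO (median 139), and Col6a2 had 72.7 to 178 in CT (median 94.2), 67.3 to 109.9 in C26 (median 87.5) and 40.5 to 113 in C26-CHO (median 92.3). Groups overlapped for both, and neither passed, at -0.14 ± 0.16 (SE, limma adjusted p = 0.463) and -0.16 ± 0.19 (SE, limma adjusted p = 0.461). Col6a3, the usual further chain, had 107 to 206 in CT (median 145), 62.4 to 134 in C26 (median 94.0) and 56.6 to 162 in C26-CHO (median 111). It fell by 0.62 ± 0.17 (SE, limma adjusted p = 0.00273), with 0 of 8 C26 mice above the CT mean.

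Both tested alternatives to Col6a3 rose. Col6a6 (chr9:105687809-105828160, minus strand) had normalized counts of 3.45 to 21.3 in CT (median 16.1), 72.8 to 87.5 in C26 (median 77.4) and 54.8 to 102 in C26-CHO (median 72.5). The lowest tumour-bearing liver lay above the highest CT liver, and the rise was 2.45 ± 0.23 (SE, limma adjusted p = 5.38e-10) in C26 and 2.33 ± 0.23 (SE, limma adjusted p = 1.9e-09) in C26-CHO. Col6a5, beside it on chromosome 9, had 22.4 to 47.2 in CT (median 38.0), 51.4 to 120.0 in C26 (median 89.8) and 45.4 to 96.4 in C26-CHO (median 64.6). It rose by 1.2 ± 0.19 (SE, limma adjusted p = 4.19e-06), with C26 and CT apart. Col6a4 had 30 reads over all libraries and was not tested. These are low genes beside Col6a1: per kb, Col6a6 went from 1.65 in CT to 8.60 in C26, and Col6a1 stood at 34.6 and 31.3.

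Fibril-associated chains sit on the surface of fibrils. Col16a1 (chr4:130047840-130099283, plus strand) had normalized counts of 37.1 to 62.2 in CT (median 52.9), 109.8 to 152 in C26 (median 132) and 89.2 to 125 in C26-CHO (median 98.5). C26 and C26-CHO both lay above CT, and the rise was 1.33 ± 0.10 (SE, limma adjusted p = 1.41e-11) in C26, the smallest p of all 41 genes. Col20a1 had 131 to 188 in CT (median 153), 256 to 374 in C26 (median 324) and 153 to 312 in C26-CHO (median 235). It rose by 1.00 ± 0.13 (SE, limma adjusted p = 1.26e-07) in C26, apart from CT, though a gene annotated on the same strand over its exons, BX649560.1, held 1570 reads, so the value is uncertain as that of Col20a1 alone.

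Col14a1, undulin, had 794 to 1330.2 in CT (median 948), 608 to 1025 in C26 (median 759.6) and 549 to 1344 in C26-CHO (median 869). It fell by 0.32 ± 0.14 (SE, limma adjusted p = 0.0463), a call that was lost in 13 of 33 other settings. It was lost without CT mouse 3, 4, 5 or 7, C26 mouse 2, 4, 5, 6 or 7 or C26-CHO mouse 4, with changes of -0.32 to -0.25 and limma adjusted p of 0.0507 to 0.110. Col12a1 had 20.3 to 39.0 in CT (median 25.2), 22.9 to 66.9 in C26 (median 28.5) and 22.1 to 48.3 in C26-CHO (median 28.9) and did not pass, at 0.21 ± 0.20 (SE, limma adjusted p = 0.374).

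Among the remaining chains, Col8a1 (chr16:57624258-57754737, minus strand), a short network chain of vessel walls, had normalized counts of 7.66 to 16.6 in CT (median 12.7), 31.6 to 84.9 in C26 (median 55.9) and 11.7 to 148 in C26-CHO (median 54.1). C26 lay above CT, and C26-CHO mouse 1 was the 1 treated liver at the CT level. The rise was 2.05 ± 0.31 (SE, limma adjusted p = 2.52e-06) in C26 and 2.03 ± 0.31 (SE, limma adjusted p = 3.47e-06) in C26-CHO. Col13a1, a transmembrane collagen, had 98.3 to 140.4 in CT (median 105), 204 to 339 in C26 (median 243) and 107 to 281 in C26-CHO (median 215). It rose by 1.14 ± 0.16 (SE, limma adjusted p = 1.07e-06), with C26 apart from CT. Col25a1, another transmembrane collagen, had 4.31 to 39.2 in CT (median 18.8), 26.3 to 68.7 in C26 (median 47.3) and 27.1 to 117 in C26-CHO (median 66.8). It rose by 1.46 ± 0.35 (SE, limma adjusted p = 0.000794) in C26 and 1.86 ± 0.35 (SE, limma adjusted p = 6.47e-05) in C26-CHO, with overlap in both.

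The 15 genes under the level tested had mean normalized counts of at least 0.275, and as few as 7 reads over the 24 libraries. Col7a1 at 8.35 lay just below the limit, and Col4a3 at 10.3 and Lamc3 at 11.2 were the nearest above it. Fitted with no filter, where 46.9% of all 22392 genes were called in C26 vs CT, 2 of the 15 rose and 6 fell. Col22a1, a chain of muscle and tendon junctions, rose by 2.19 ± 0.42 (SE, limma adjusted p = 8.07e-05).

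Col22a1 had 2 reads in the 8 CT libraries, with 6 of them at 0, 41 reads in C26 and 37 in C26-CHO. Those that fell were Col4a4, Col6a4, Col7a1 of the anchoring fibrils, Col17a1 of hemidesmosomes, Col24a1 and Col28a1. Col4a4 fell by 1.38 ± 0.35 (SE, limma adjusted p = 0.00158), as Col4a3 did. The other 7 did not pass.

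C26-CHO vs C26 compares tumour-bearing livers with and without cholestyramine. None of the 41 genes was called in C26-CHO vs C26 by limma, where 0.705% of all genes were, nor by edgeR. At an unadjusted p under 0.05 there were 5 genes, 1 higher and 4 lower, where 7.43% of all genes were higher and 5.62% lower at that level: Lama3, Col16a1, Col20a1, Col11a2 and Col13a1. DESeq2 called 3. For 39 of the 41 genes the 95% interval of the change lay within 2-fold either way. The exceptions were Lama3 and Col25a1, at 0.40 ± 0.35 with an interval of -0.34 to 1.13.

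Lama3 had the largest fitted difference, 1.08 ± 0.28 (SE, limma adjusted p = 0.071). All 8 C26-CHO mice lay above the C26 mean, and the interval was 0.50 to 1.66. DESeq2 gave 1.16 (adjusted p = 0.00588). Limma called it without C26 mouse 5 or C26-CHO mouse 2, 3 or 4, with limma adjusted p from 0.0288 to 0.0474. For Col16a1 the difference was -0.37 ± 0.10 (SE, limma adjusted p = 0.0809) and for Col20a1 -0.45 ± 0.13 (SE, limma adjusted p = 0.0898), with 0 of 8 treated mice above the C26 mean for either. DESeq2 gave -0.38 (adjusted p = 0.0130) and -0.43 (adjusted p = 0.0399). Without C26-CHO mouse 3 limma called Col20a1 at -0.50 (limma adjusted p = 0.0422).

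For the abundant genes the intervals were narrow. Fn1 differed between C26-CHO and C26 by -0.10 ± 0.16 with an interval of -0.42 to 0.22, Col18a1 by -0.04 ± 0.07 with an interval of -0.19 to 0.10 and Col4a1 by -0.17 ± 0.15 with an interval of -0.48 to 0.14. Col1a1 and Col3a1 had wider intervals, -0.70 to 0.37 and -0.46 to 0.48.

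Against CT, the treated group had 18 genes higher and 10 lower, where 62.2% of all genes were called, and 11 genes whose groups did not overlap, against a background of 25.2%. The same 18 genes were higher in both tumour groups, and 9 genes were lower in both. Both comparisons share the CT mice, so this overlap is no separate result. Lama2 and Col14a1 were called in C26 alone and Col11a2 in C26-CHO alone, and none of these differed between the tumour groups by limma. Leaving out C26-CHO mouse 1 gave 18 higher and 10 lower. Of the 28 called genes, that mouse was the treated liver nearest to the CT mean in 11, or 39.3%, beside 46.2% of all called genes.

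Chains that join in a trimer or take the same place in one, and Col3a1 with Col1a1, were compared as a ratio of normalized count + 1 within each liver, in which the library's scaling all but cancels. There were 7 ratios in 3 comparisons, tested by exact two-sided permutation with Benjamini-Hochberg adjustment over all 21, and 0.000155 is the smallest p that 8 against 8 mice can give. The log2 ratio of Col4a1 to Col4a2 was 0.43 ± 0.09 in CT, 0.96 ± 0.10 in C26 and 0.96 ± 0.31 in C26-CHO (SD, n = 8 each). Every tumour-bearing mouse was above every CT mouse, and the difference of 0.53 in C26 had an adjusted permutation p of 0.00109. Per length, Col4a1 was 1.20-fold Col4a2 in CT and 1.73-fold in C26.

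Col5a1 to Col5a2 fell from 1.5 ± 0.38 in CT to -0.01 ± 0.48 in C26 and -0.00 ± 0.41 in C26-CHO (SD, n = 8 each). C26 mouse 4 at 0.99 was the 1 tumour-bearing liver within the CT range, and the adjusted permutation p was 0.00163 in C26 and 0.00109 in C26-CHO. Lamb1 to Lamc1 rose from -1.43 ± 0.19 to -1.05 ± 0.24 in C26, with an adjusted permutation p of 0.0154 and C26 mouse 2 at the CT level. This ratio was also higher in C26-CHO than in CT, by 0.43 (adjusted permutation p = 0.0154). Between the tumour groups it did not pass, at 0.05 (adjusted permutation p = 0.895). Lamb1 to Lamb2 was higher in C26-CHO than in CT by 0.47 (adjusted permutation p = 0.0131) and did not pass in C26 vs CT, at 0.27 (adjusted permutation p = 0.138).

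Col6a1 to Col6a2 was not called in any comparison, with C26 and CT 0.02 apart (adjusted permutation p = 0.947). Col1a1 to Col1a2 did not pass, at -0.25 in C26 (adjusted permutation p = 0.199), and passed without CT mouse 6, at -0.34 in C26 and -0.43 in C26-CHO (adjusted permutation p = 0.0424 and 0.0318). Col3a1 to Col1a1 did not pass, at -0.20 in C26 vs CT (adjusted permutation p = 0.0677) and 0.17 in C26-CHO vs C26 (0.0968). It passed in the first without CT mouse 2 or 7 or C26 mouse 3, at -0.24, and in the second without C26 mouse 3 or C26-CHO mouse 8, at 0.21. Lamb1 to Lamb2 in C26 vs CT passed without C26 mouse 2, at 0.35.

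**Figure D4:**
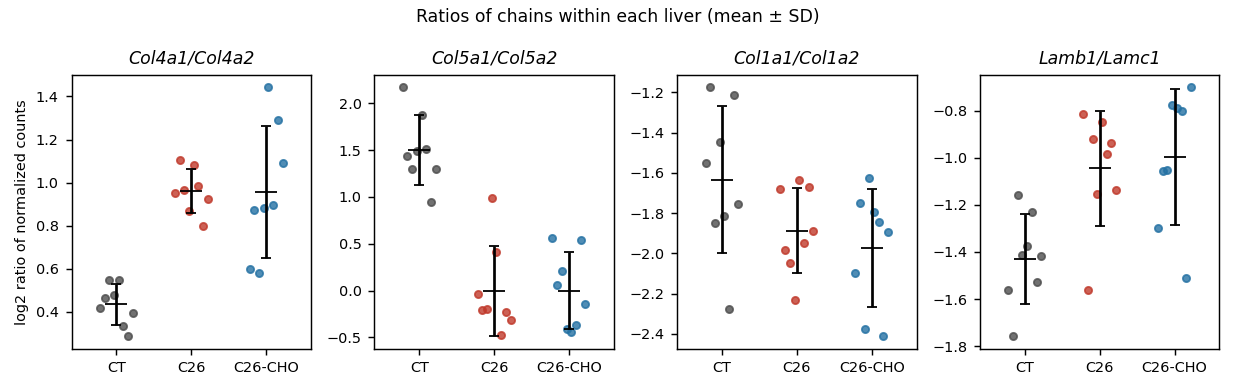
Log2 ratio of normalized counts of 4 pairs of chains within each liver, with a horizontal bar at the mean and whiskers of ± 1 SD over 8 mice. Col4a1 over Col4a2 is higher in both tumour groups with no overlap with CT, Col5a1 over Col5a2 falls to about 0 in both, and Col1a1 over Col1a2 overlaps.

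Within a group, the same pairs differed in how closely they followed each other from mouse to mouse. For Col3a1 and Col1a1, not partners in 1 trimer, Pearson's r was 0.959, 0.939 and 0.967 and Spearman's rho 0.952, 0.833 and 0.881 in CT, C26 and C26-CHO (n = 8 each). Exact permutation p was 0.000248, 0.00166 and 0.000769 for r and 0.00114, 0.0154 and 0.00724 for rho. Adjusted over 21 relations these were 0.0026, 0.00677 and 0.00538 for r and 0.0120, 0.0461 and 0.0380 for rho. Without the 2 mice farthest from the group median of the first-named chain, r was 0.937, 0.629 and 0.840. Of the 21 relations, 12 had an adjusted permutation p under 0.05 for r and 7 for rho. For Col5a1 and Col5a2 the groups gave different values. In CT, r was -0.0129 (exact permutation p = 0.979, adjusted 0.979) and rho -0.333 (exact permutation p = 0.428, adjusted 0.473), and r was -0.143 without the 2 farthest mice. In C26, r was 0.391 (exact permutation p = 0.360, adjusted 0.420) and rho 0.357 (exact permutation p = 0.389, adjusted 0.454), and r was 0.410 without the 2 farthest mice. In C26-CHO, r was 0.788 (exact permutation p = 0.0190, adjusted 0.0363) and rho 0.619 (exact permutation p = 0.115, adjusted 0.172), but r was 0.108 without the 2 farthest mice. The 6 mice left did not show the relation, though leaving out the farthest mice also narrows the range of Col5a1. Each point of such a relation is 1 library, so both chains of a point share its depth.

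A pair of livers held the lowest value of their group for many matrix genes. C26 mouse 4 held the lowest value of its group in 22 of the 41 genes, 53.7%, beside 12.7% of all tested genes. C26-CHO mouse 7 did so in 21 of 41, 51.2%, beside 12.2% of all. The same livers had the lowest summed level of the 14 stellate cell markers in their groups, 5891 and 4278, and of the 12 sinusoidal endothelium markers, 9521 and 7340. Without C26 mouse 4, 18 genes rose and 10 fell in C26 vs CT, and without C26-CHO mouse 7, 19 rose and 10 fell in C26-CHO vs CT. The part of those cells in the low values was not tested.

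Markers of the cells that make matrix moved unevenly between groups. The counts below stand beside 33.3% of all tested genes called higher and 32.9% called lower in C26 vs CT. They are a description, since the marker lists were chosen with earlier results of these data known. Of 14 stellate cell markers, 6 rose and 2 fell in C26, and their summed level was 5896 to 7536 in CT and 5891 to 8051 in C26. Of 7 tested markers of myofibroblasts and smooth muscle, 1 rose, Timp1, and none fell. Acta2, the actin of activated stellate cells, did not pass at -0.20 ± 0.46 (SE, limma adjusted p = 0.716). Portal fibroblast markers had 4 higher and 3 lower of 9, with a median change of 0.35 on the log2 scale and Gas6 at 3.57 ± 0.12 (SE). Their summed level was 648 to 1407 in CT and 6183 to 9822 in C26, and the part of Gas6 in that sum was not separated. Mesothelial markers had 1 of 4 higher.

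Endothelial cells also make basement membrane. Sinusoidal endothelium markers had 8 of 12 higher and 2 lower, beside 33.3% and 32.9% of all genes. Their summed level was 7468 to 9700 in CT and 9521 to 12041 in C26. Other endothelial markers had 6 of 10 higher and none lower. Macrophage markers rose in 7 of 8 and cholangiocyte markers in 3 of 7. Neutrophil and platelet markers rose in 3 of 3 tested each, where 8 and 6 were listed and the others were too low to be tested. The summed level of all 8 neutrophil markers was 11.5 to 30.9 in CT and 142 to 636 in C26. At so low a CT level, the 3 tested may have passed the limit through the tumour-bearing livers, so 3 of 3 says little about the list. Hepatocyte markers had 3 of 9 higher and 5 lower, and of the colon epithelium markers the 1 tested, Lgals4, fell. In C26-CHO vs C26 none of the markers was called, where 0.705% of all genes were. The part of these shifts in the matrix gene changes was not tested.

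Genes that modify and fold collagen mostly rose, 14 higher and 3 lower of 21 tested in C26, with a median of 0.54 on the log2 scale beside 0.0056 for all genes. In this comparison 33.3% of all tested genes were called higher and 32.9% lower. The pathway lists were chosen with earlier results of these data known, so their counts are a description only. P3h1, a prolyl 3-hydroxylase, had normalized counts of 228 to 295 in CT (median 270.2), 595 to 738 in C26 (median 675) and 404 to 718 in C26-CHO (median 611). It rose by 1.32 ± 0.09 (SE, limma adjusted p = 7.85e-13) with no overlap between C26 and CT. Colgalt1, which adds galactose to hydroxylysine, rose by 1.05 ± 0.06 (SE, limma adjusted p = 2.87e-13), and P4hb, a subunit of prolyl 4-hydroxylase, by 0.78 ± 0.07 (SE, limma adjusted p = 1.14e-10). Mia2, which helps large cargo leave the endoplasmic reticulum, fell by 0.68 ± 0.05 (SE, limma adjusted p = 2.73e-12). For processing and cross-linking, 12 rose and 1 fell of 16, beside the same shares of all genes, with a median of 0.85. Tgm2, a cross-linking transglutaminase, had 977 to 1502 in CT (median 1273), 3509.8 to 5343 in C26 (median 4579) and 3147 to 6559 in C26-CHO (median 4255) and rose by 1.86 ± 0.13 (SE, limma adjusted p = 1.9e-12). Lum and Dcn, proteoglycans of fibrils, rose by 1.59 ± 0.15 (SE, limma adjusted p = 6.72e-10) and 1.02 ± 0.10 (SE, limma adjusted p = 1.25e-09), and Bmp1, which removes the end of procollagen, by 0.67 ± 0.07 (SE, limma adjusted p = 7.95e-09).

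Genes of matrix breakdown and its inhibitors had 9 higher and 3 lower of 16, beside 33.3% and 32.9% of all genes. Their median was 0.82. Mmp14, a membrane-bound collagenase, had normalized counts of 309.7 to 426 in CT (median 331), 1729 to 2162 in C26 (median 1865) and 969.7 to 1994 in C26-CHO (median 1751). C26 lay above CT throughout, and it rose by 2.43 ± 0.11 (SE, limma adjusted p = 2.96e-16). Mmp8, the collagenase of neutrophils, went from 0 to 1.72 in CT to 34.2 to 220.5 in C26, beside the neutrophil markers above. With CT values this low, Mmp8 reached the level tested only through the tumour-bearing livers. Mmp15 fell by 1.69 ± 0.14 (SE, limma adjusted p = 6.58e-11).

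Receptors for collagen, laminin and other matrix proteins such as fibronectin had 12 higher and none lower of 18, beside 33.3% and 32.9% of all genes. Their median was 0.69. Itga5, of the fibronectin receptor, had 344 to 414 in CT (median 359), 766 to 1037 in C26 (median 829) and 639 to 898 in C26-CHO (median 798) and rose by 1.26 ± 0.07 (SE, limma adjusted p = 3.54e-14). Itga6 and Itga7, of laminin receptors, rose by 2.11 ± 0.19 (SE, limma adjusted p = 2.13e-10) and 1.66 ± 0.09 (SE, limma adjusted p = 2.27e-14), and Itgb3, also a platelet integrin, by 2.39 ± 0.19 (SE, limma adjusted p = 2.85e-11). Genes of TGF-beta and growth factor control had 8 higher and 6 lower of 22, near those shares of all genes, with a median of 0.04. Ltbp4, which holds latent TGF-beta in the matrix, fell by 1.59 ± 0.13 (SE, limma adjusted p = 4.48e-11). Pdgfa fell by 1.05 ± 0.14 (SE, limma adjusted p = 1.93e-07) and Smad7, an inhibitor of TGF-beta signalling, fell by 0.77 ± 0.14 (SE, limma adjusted p = 2.92e-05), while Pdgfc rose by 1.53 ± 0.14 (SE, limma adjusted p = 8.97e-10). In C26-CHO vs C26 none of these 5 lists held a gene called by limma in the main test, where 0.705% of all genes were called. Limma called Mmp8 with a pseudocount of 8 (-1.16, limma adjusted p = 0.0329) and without C26 mouse 8 or C26-CHO mouse 3 or 5 (-1.53 to -1.41, limma adjusted p from 0.0413 to 0.0467). It called Itga6 without C26-CHO mouse 3 (-0.70, limma adjusted p = 0.0411). Mmp8 was also called by edgeR at -1.53 (adjusted p = 0.0313) and by DESeq2 at -1.52 (adjusted p = 0.00599), with normalized counts of 10.6 to 51.7 in C26-CHO.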

How the data were processed

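Livers of 24 mice, 8 in each of 3 groups, were sequenced as RNA. Per the submitters' processing notes, bcl2fastq 2.17, FastQC, Trimmomatic 0.38, STAR 2.6.1d, the GRCm38 build and DESeq2 1.22.2 were used, while for counting, annotation and strandedness the tool or setting is not given in the sources used here. The deposited values are a signal, counts that the authors divided by size factors, and 100% of them gave whole reads within 0.001 when the factors were recovered. Names came from GENCODE M21. The main test was limma 3.58.1 (R 4.3.3) on log2(value + 1) for genes with a mean of at least 10, over all 24 libraries, with a Benjamini-Hochberg adjusted p under 0.05. edgeR 4.0.16 and DESeq2 1.42.0 on whole reads, other pseudocounts, scalings and filters, the replicate number as a block and leaving out each library were alternatives. The fits were tested on simulated data. Same-numbered mice did not deviate together (correlations of -0.204 to 0.255), so the numbers were taken not to pair mice. Every matrix gene could be named, and for other lists up to 4 called genes with the smallest p. The members and lists were chosen with earlier results of these data known. Ctgf was looked up under its GENCODE symbol Ccn2. The values of 2 genes are not reported here.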

Additional observations from a re-analysis of the deposited data

Results flagged for a closer look

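In a group of 8 mice, a highest or lowest value was marked when its gap to the nearest mouse, divided by the whole range of the group, passed the 95% critical value of Dixon's test. Of 144 groups examined, 12 were marked, and chance marks about 1 in 20. In CT they were mouse 4 with Col6a2 at 178 and Col6a3 at 206, and mouse 5 with Col14a1 at 1330.2 and Lama1 at 151, all high. In C26, mouse 4 was high for Col18a1 at 26191 and low for Lama2 at 6.12, mouse 3 was high for Col4a5 at 100.4 and Col12a1 at 66.9, and mouse 6 was high for Col4a2 at 1141 and Col13a1 at 338.5. C26 mouse 2 was low for the log2 ratio of Lamb1 to Lamc1, at -1.56. C26-CHO mouse 1, the liver that stood apart from its group, was high for Col5a3 at 1037.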

How the results depend on the processing

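Over 33 other settings, 25 of the 29 calls in C26 vs CT and 23 of the 28 in C26-CHO vs CT held in every setting. With libraries scaled to their totals, 19 genes were lower in C26 vs CT and 18 in C26-CHO vs CT, beside 8178 and 7900 of all 14040. Col18a1 reversed to -0.21 and -0.22. In C26-CHO vs C26, DESeq2 called 1 gene higher and 2 lower. Leaving out 1 library gave 0 to 1 higher and 0 to 1 lower in C26-CHO vs C26. With 1 library left out, the log2 ratio of Col3a1 to Col1a1 differed by -0.24 to -0.14 in C26 vs CT and by 0.12 to 0.21 in C26-CHO vs C26. Col1a1 to Col1a2 differed by -0.34 to -0.19 in C26 vs CT and by -0.43 to -0.27 in C26-CHO vs CT, and Lamb1 to Lamb2 by 0.21 to 0.35 in C26 vs CT. The causes were not tested. With the replicate number as a block the counts were 18 higher and 11 lower, 0 and 0, and 18 and 10, and the block changed none of these counts. Genes under the level tested rest on few reads, and their changes depend on the pseudocount.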
